A study of Sus scrofa with 12 samples.

Results

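Transcript levels of the oxidative phosphorylation genes were examined in muscle satellite cells of the pig by RNA-seq. Satellite cells are stem cells that lie along muscle fibres and give rise to new ones. The set was chosen by gene name alone: nuclear genes of complexes I to V named NDUFA, NDUFB, NDUFC, NDUFS, NDUFV, SDH, UQCR, COX, CYC1 or ATP5, and the protein genes of the mitochondrial genome. Nuclear COX names needed a number followed by A, B or C, which left out COX4I1 and COX4I2. The set held 76 of the 31908 genes in the deposited table, 63 of them nuclear and 13 mitochondrially encoded. Among the nuclear genes 29 belonged to complex I, 3 to complex II, 6 to complex III, 13 to complex IV (NDUFA4 and NDUFA4L2 counted there) and 12 to complex V. The mitochondrially encoded genes comprised 7 subunits of complex I (ND1, ND2, ND3, ND4, ND4L, ND5 and ND6), 1 of complex III (CYTB), 3 of complex IV (COX1, COX2 and COX3) and 2 of complex V (ATP6 and ATP8).

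Oxidative phosphorylation couples electron transfer along complexes I, III and IV of the mitochondrial inner membrane to proton pumping, and complex V, the ATP synthase, uses the resulting gradient to make ATP. Complex II feeds electrons from succinate and pumps no protons. All complexes but complex II are built from subunits of both genomes, and skeletal muscle is known for its dependence on them once fibres mature. The mitochondrial genes are transcribed as long precursors from either strand that are then cut into single transcripts, and ND6 is the only protein gene carried by the light strand.

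The 12 libraries formed 4 groups of 3 replicates: CBP cells at 60h, labelled as differentiation, WT cells at 60h, CBP cells at 0h, labelled as proliferation, and WT cells at 0h. The CBP arm was read as cells given SGC-CBP30, an inhibitor of the acetyl-lysine binding modules of CBP and p300, since the treatment text names it, with 48 h of exposure in proliferation and 60 h in differentiation. That text stands on every sample while the groups are named in the genotype field, so a compound and a genetic change cannot be told apart from the labels. The dose is labelled as 5 uM per ml, the control treatment is not stated, and all samples carry the cell line name C3H, usually a mouse name, beside the organism pig. Nothing in the labels says that replicates came from separate cultures, so p-values measure only the spread between these samples.

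Libraries held 16095335 to 19155240 reads on genes, as recovered from the steps between low FPKM values. Of the cell type markers, the summed level of 8 satellite cell and muscle genes was 1355 to 1471 FPKM in CBP cells at 60h, 2259 to 2437 in WT cells at 60h, 373 to 405 in CBP cells at 0h and 1494 to 1511 in WT cells at 0h. The 7 fibroblast markers summed to 2375 to 2603, 3618 to 3773, 489 to 503 and 1008 to 1045 FPKM in the same order of groups, and the 6 smooth muscle and pericyte markers to 2621 to 2816, 3750.1 to 3761, 1411 to 1459 and 3552 to 3699.99 FPKM. Sums of the 5 endothelial, 5 immune and 5 adipocyte markers stayed at or below 7.66 FPKM in every library, and CD3E was listed at 0 throughout. Of the muscle markers 8 of 8 were called lower in CBP cells at 0h, and 5 lower and 2 higher at 60h. Fibroblast markers had 5 lower and 1 higher at 0h and 3 lower and 3 higher at 60h, and smooth muscle markers 6 lower at 0h and 4 lower and 1 higher at 60h. Of all genes tested 18.1% were called lower and 44.2% higher at 0h, and 27.0% lower and 44.7% higher at 60h. These markers thus moved with the groups, and their part in the results below was not tested. In bulk RNA fewer cells of a type and less RNA per cell cannot be told apart. CREBBP, which encodes CBP, averaged 14.03 ± 1.01 FPKM in CBP cells and 8.58 ± 0.212 FPKM in WT cells at 60h, and 9.97 ± 0.186 FPKM in CBP cells and 8.13 ± 0.615 FPKM in WT cells at 0h.

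Levels per kilobase differed widely between the genomes. The mitochondrially encoded genes took 9.12 ± 0.0350% of all FPKM in CBP cells at 60h, 9.83 ± 0.236% in WT cells at 60h, 10.6 ± 0.369% in CBP cells at 0h and 8.97 ± 0.118% in WT cells at 0h (SD, n = 3 each). The nuclear genes together took 0.747 ± 0.00982%, 0.774 ± 0.00858%, 0.973 ± 0.0298% and 0.957 ± 0.00532% in that order of groups. Of all reads the mitochondrial genes took 3.33 ± 0.0321%, 3.51 ± 0.0959%, 4.21 ± 0.167% and 3.70 ± 0.0808% in the same order. In WT cells their share was thus higher at 60h than at 0h by FPKM and lower by reads, without overlap in either measure. COX1, the catalytic subunit of cytochrome c oxidase (mitochondrial genome, positions 6511 to 8055 in Sscrofa11.1), had the highest level in all 4 groups, followed by COX3. ATP8, a small subunit of the ATP synthase (positions 8959 to 9162), was the lowest mitochondrial gene at 36.98 FPKM in CBP cells at 60h, 34.4 in WT cells at 60h, 20.4 in CBP cells at 0h and 13.8 in WT cells at 0h. It overlaps the start of ATP6 (9120 to 9800) and rested on only 51 to 155 recovered reads per library, so its level is uncertain. ND4L (11069 to 11365) overlaps ND4 (11359 to 12736), and ND6 (14739 to 15266) overlaps the end of ND5 (12935 to 14755) on the other strand, and the strand and multiple-mapping settings of the counting are unknown here. Reads shared with overlapping genes or with nuclear copies of mitochondrial DNA could not be told apart.

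Among the nuclear genes COX8A, a small subunit of complex IV, and ATP5PO, the stalk subunit on the catalytic head of the ATP synthase, had the highest mean FPKM in all 4 groups. FPKM divides reads by gene length, 539 bases for COX8A, 786 for ATP5PO and 7664 for ATP5F1A, so the order depends on the lengths. By reads ATP5F1A stood higher, with 51425 against 8426 for COX8A and 9970 for ATP5PO in CBP cells at 0h. ATP5PO averaged 179 ± 3.53 FPKM in CBP cells and 176 ± 2.40 FPKM in WT cells at 60h, and 239.9 ± 3.25 FPKM in CBP cells and 212 ± 4.88 FPKM in WT cells at 0h. ATP5F1D and NDUFA4 came next in every group, and NDUFA11, an accessory subunit of complex I, had the lowest or second lowest level of the nuclear genes tested. Within groups the coefficient of variation of the tested nuclear genes had a median of 3.80% and reached 33.0% at most, for NDUFA11 in CBP cells at 60h. That of the mitochondrial genes other than ATP8 reached 11.7% at most, and that of ATP8 reached 35.0% in CBP cells at 0h. Of the 63 nuclear genes 59 passed the filter (FPKM no lower than 1 in 3 or more of the 12 libraries) and were tested, as were all 13 mitochondrial genes. NDUFB7 was listed at 0 in every library and NDUFS8, an iron-sulfur subunit of complex I, at 0.10 to 0.39 FPKM. Both are known parts of the mammalian enzyme. COX7A1, the isoform of heart and skeletal muscle, reached 0.107 FPKM at most and COX6B2, known as a testis isoform, 0.783 FPKM. SDHA, NDUFA7, NDUFB5 and UQCR11 carried only an identifier in the deposited table and were named from the reference table, so they fall outside the rule. Other known subunits, such as ATP5F1B, NDUFS7 and UQCRB, were not found by the rule, so the sums of each complex leave subunits out. The isoforms COX6B1, COX7B2, COX8B, COX8C and ATP5MC2 were not analysed here.

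**Figure D1:**
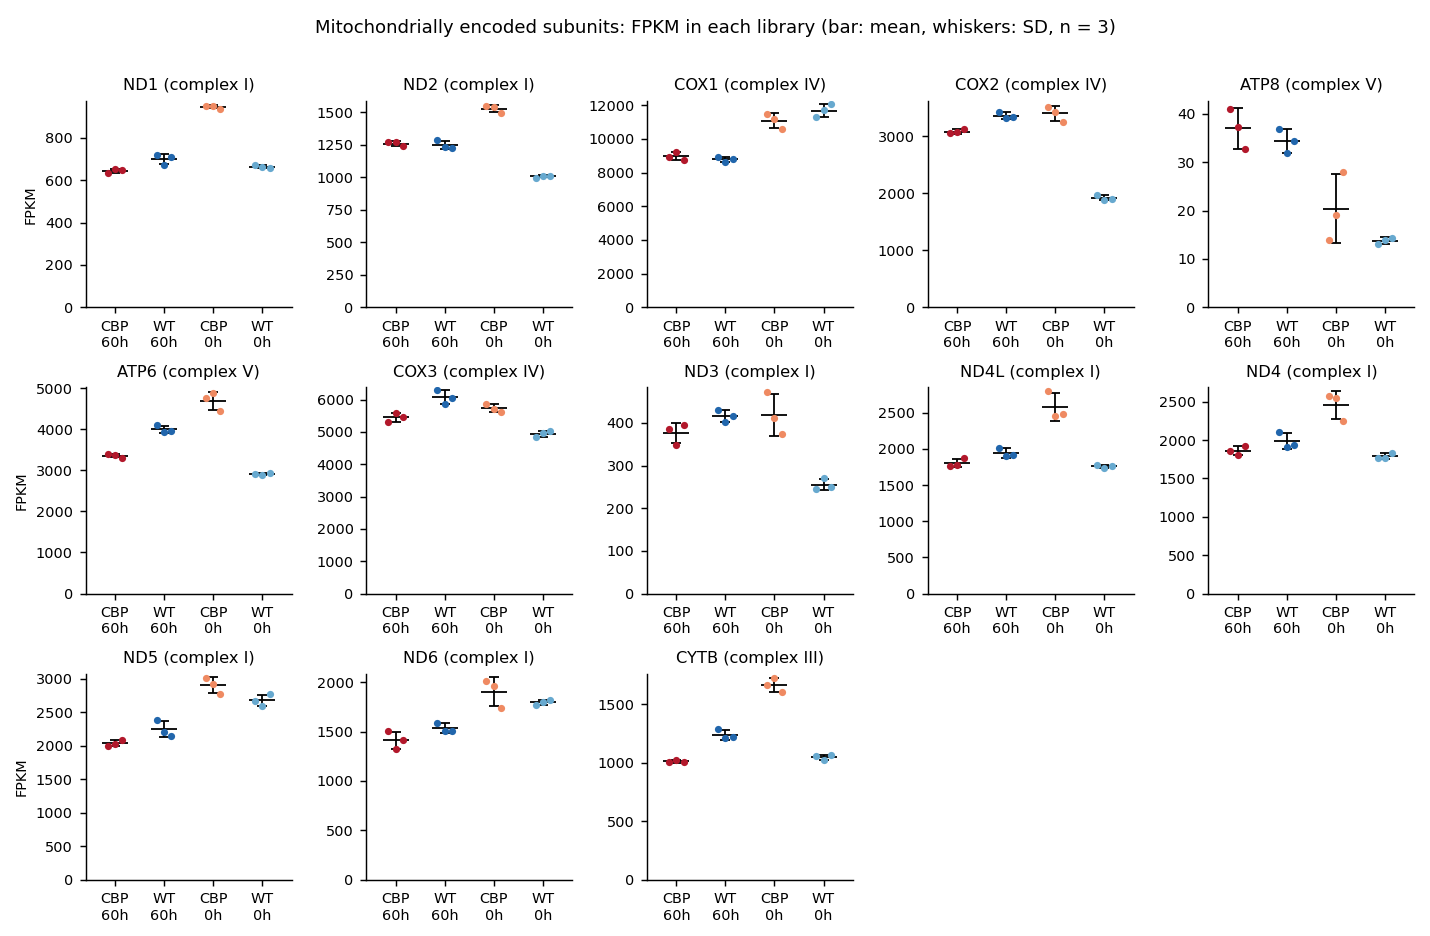
FPKM (y axis, from 0) of the 13 mitochondrially encoded genes in each library (points) of CBP cells at 60h, WT cells at 60h, CBP cells at 0h and WT cells at 0h (x axis), with group means (horizontal bars) and SD (whiskers, n = 3). For COX2, ND2, ND3, ATP6 and CYTB the WT libraries at 0h lie below all CBP libraries at 0h, while COX1 is higher at 0h than at 60h in both arms.

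In proliferation, the transcripts of most mitochondrially encoded subunits were higher in CBP cells than in WT cells. COX2, the subunit that takes electrons from cytochrome c (positions 8203 to 8890), had 3512, 3435 and 3259.7 FPKM in CBP cells against 1971, 1888 and 1899 FPKM in WT cells at 0h. Every CBP library lay above every WT library. COX2 was 1.77-fold higher (ratio of mean FPKM), a log2 change of 0.82 ± 0.032 (SE, n = 3 a group, limma adjusted p = 1.24e-09). The log2(FPKM + 1) scale was used for every log2 change and makes the changes of low genes look smaller. CYTB, the catalytic core of complex III (15342 to 16481), had 1665, 1726 and 1607 FPKM in CBP cells against 1057, 1019.5 and 1063 FPKM in WT cells. ATP6, which forms the proton channel of the ATP synthase with the c-ring, had 4767, 4877 and 4451 FPKM in CBP cells against 2907, 2888 and 2934 FPKM in WT cells. Neither gene's groups overlapped, and CYTB rose 1.59-fold (limma adjusted p = 8.94e-09) and ATP6 1.61-fold (limma adjusted p = 1.02e-08).

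Of the 13 mitochondrial genes 11 were called higher and 0 lower in CBP cells at 0h by limma at an adjusted p under 0.05 (also 0 lower at an unadjusted p under 0.05), with a median log2 change of 0.51. Over all 11636 genes tested 62.3% were called, 44.2% higher and 18.1% lower, and the median change was 0.12. Since most genes lay above 0, the values were also scaled by median of ratios, shifting the median over all genes by -0.12 at 0h and by -0.11 at 60h. After it 2958 of all genes were called higher and 3131 lower at 0h, against 5148 and 2102 as deposited, and 3899 higher and 4155 lower at 60h, against 5200 and 3137. With that scaling 8 mitochondrial genes were called higher and 1, COX1, lower, with a median of 0.37. ATP8, COX3 and ND5 lost their calls there, and ND5 stood at -0.02, against 0.12 as deposited.

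The complex I genes did not move alike. ND3, a small subunit of the membrane arm, had 471, 410.2 and 374 FPKM in CBP cells against 246, 270.2 and 249.99 FPKM in WT cells at 0h, a 1.64-fold difference (log2 0.71 ± 0.074, limma adjusted p = 5.79e-06). ND2, a proton-pumping subunit, had 1549, 1542 and 1496 FPKM in CBP cells against 998, 1014 and 1014 FPKM in WT cells, 1.52-fold higher (limma adjusted p = 2.93e-09). The groups of ND3 and ND2 stood apart. ND4L, ND1 and ND4, further subunits of the membrane arm, were 1.47-fold, 1.43-fold and 1.37-fold higher in CBP cells, with log2 changes of 0.55, 0.51 and 0.46. ND5, the most distal pump subunit, had 3012, 2921 and 2776 FPKM in CBP cells against 2666, 2592 and 2765 FPKM in WT cells, with a change of 0.12 ± 0.044 (limma adjusted p = 0.0341). ND6 had 2014, 1957 and 1736 FPKM in CBP cells against 1764, 1803 and 1819 FPKM in WT cells, the groups overlapped, and it was not called (log2 0.08 ± 0.056, limma adjusted p = 0.229).

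COX1 stood apart from its neighbour COX2. It had 11489.7, 11147 and 10602 FPKM in CBP cells against 11286, 11711 and 12036 FPKM in WT cells at 0h, with overlapping groups and no call (log2 -0.08 ± 0.039, limma adjusted p = 0.108). After median-of-ratios scaling COX1 was called lower in CBP cells at a log2 change of -0.21. COX3, a core subunit with no metal centre, had 5857, 5724 and 5628 FPKM in CBP cells against 4845, 4954 and 5034 FPKM in WT cells and was 1.16-fold higher (log2 0.21 ± 0.034, limma adjusted p = 0.000176). ATP8 had 13.9, 19.1 and 28.02 FPKM in CBP cells against 13.1, 13.9 and 14.4 FPKM in WT cells. Its groups overlapped, and its call (log2 0.48 ± 0.18, limma adjusted p = 0.0344) held in 10 of 20 alternative settings.

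The nuclear subunits differed by small amounts at 0h, and the balance of their calls turned with the scaling. Of the 59 tested, 8 were called higher and 3 lower in CBP cells, against 44.2% higher and 18.1% lower among all genes, and their median log2 change was 0.04. After median-of-ratios scaling 4 were higher and 20 lower, with a median of -0.10, and COX8A, NDUFB10 and NDUFA6 were among those still called higher. NDUFB10, an accessory subunit of the membrane arm (chromosome 3, positions 40003109 to 40005650), had 101, 107 and 104 FPKM in CBP cells against 86.00, 79.4 and 82.2 FPKM in WT cells and rose by 0.33 ± 0.062 on the log2 scale (limma adjusted p = 0.000624). COX8A had 291, 307 and 288 FPKM in CBP cells against 237, 247 and 254 FPKM in WT cells and rose by 0.26 ± 0.037 (limma adjusted p = 7.34e-05). In both genes all CBP libraries were above all WT libraries.

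Others that rose were NDUFA6 and NDUFC2, accessory subunits of complex I, NDUFB11, an X-linked subunit of its membrane arm (X, positions 41770929 to 41773879), COX7A2L, which links complexes III and IV, and ATP5PO. Their log2 changes were 0.31, 0.19, 0.32, 0.19 and 0.18. The 3 that fell were UQCR10, a small subunit of complex III, at -0.20 ± 0.060, ATP5PF, a stalk subunit of the ATP synthase, at -0.14 ± 0.048, and NDUFA10, an accessory subunit of complex I, at -0.13 ± 0.039. By complex, the calls were 5 higher and 1 lower of 27 in complex I, 0 of 3 in complex II, 0 higher and 1 lower of 6 in complex III, 2 higher and 0 lower of 11 in complex IV, and 1 each of 12 in complex V. Calls also shifted with single libraries: 13 were higher without CBP replicate 3, 5 lower without CBP replicate 2, and 1 lower without WT replicate 2.

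**Figure D2:**
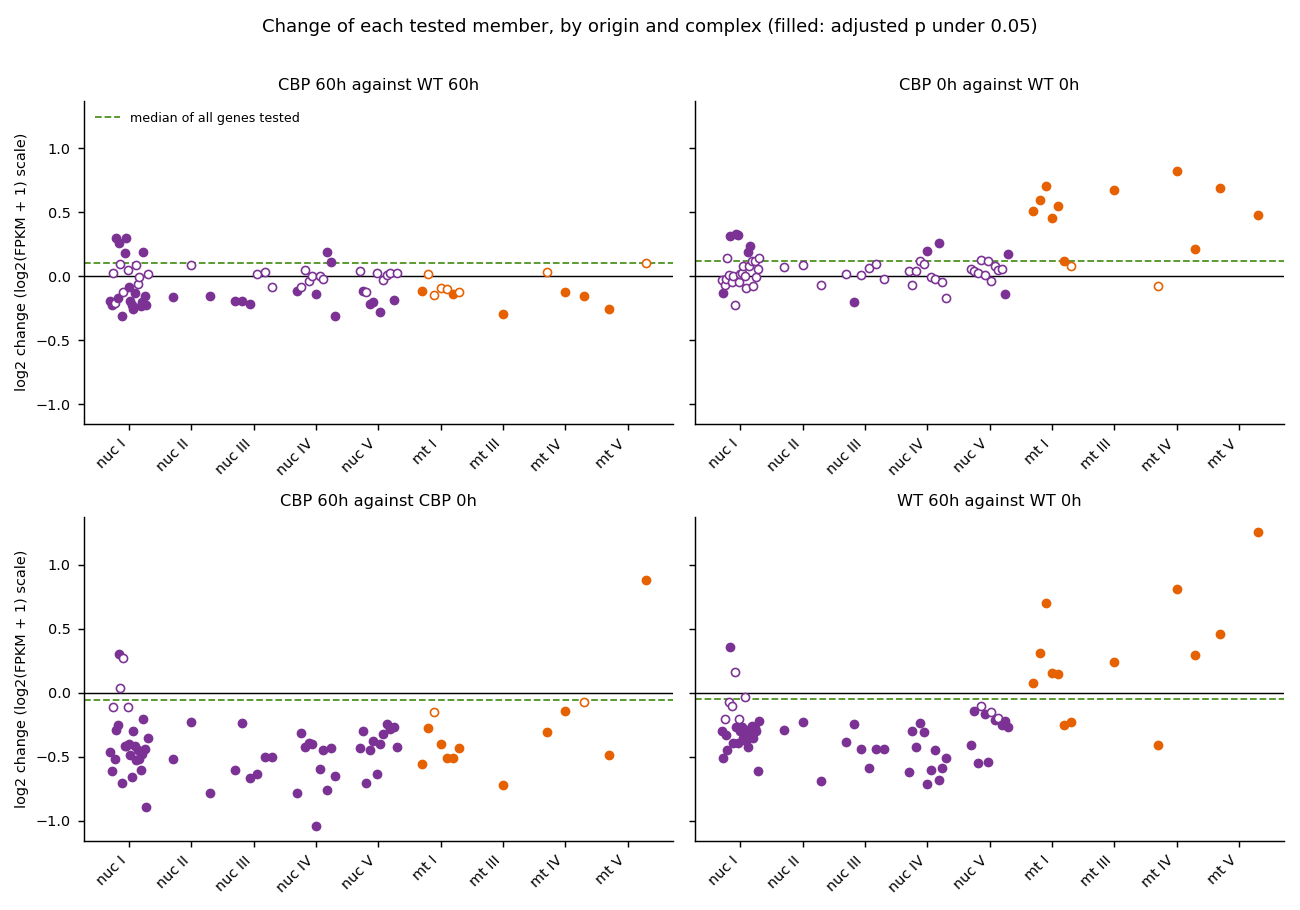
Log2 change of each tested gene (points, y axis, log2(FPKM + 1) scale), for nuclear (nuc, purple) and mitochondrially encoded (mt, orange) genes of each complex (x axis) in 4 comparisons. Filled points passed an adjusted p under 0.05 and the dashed line is the median of all genes tested. At 0h 11 of 13 mitochondrial points lie above 0 and are filled, while at 60h 6 are filled and below 0.

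After 60h of differentiation the mitochondrial difference between CBP and WT cells was called in the opposite direction for 6 genes. Of the 13 mitochondrial genes 0 were called higher and 6 lower in CBP cells (also 0 higher at an unadjusted p under 0.05), with a median log2 change of -0.12, while 71.6% of all genes were called, 44.7% higher and 27.0% lower (median 0.10). CYTB had 1005, 1022 and 1006 FPKM in CBP cells against 1288, 1211 and 1219.5 FPKM in WT cells, all CBP libraries below all WT libraries, and fell by 1.23-fold (log2 -0.29 ± 0.033, limma adjusted p = 6.05e-06). ATP6 had 3391, 3366 and 3311 FPKM in CBP cells against 4105, 3939 and 3959 FPKM in WT cells, also without overlap (log2 -0.25 ± 0.034, limma adjusted p = 3.16e-05). COX3, ND5, COX2 and ND1 were lower by smaller amounts, at log2 changes of -0.15, -0.14, -0.12 and -0.12.

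ND2 had 1273, 1271 and 1238 FPKM in CBP cells against 1285, 1232 and 1229 FPKM in WT cells at 60h, overlapping and not called (log2 0.01 ± 0.026), and scaling by median of ratios turned it to -0.12, called lower (limma adjusted p = 0.00627). COX1 had 8936, 9229.7 and 8751 FPKM in CBP cells against 8917, 8646 and 8802 FPKM in WT cells and was not called (log2 0.03 ± 0.039, limma adjusted p = 0.51). ND3, ND4, ND4L and ND6 stood at -0.15, -0.10, -0.10 and -0.12 without passing the test, and ATP8 at 0.10. After median-of-ratios scaling 11 of the 13 were called lower and the median was -0.25. Without the filter on low values and after quantile scaling 3 were called lower.

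Of the 59 nuclear subunits tested at 60h, 26 were called lower in CBP cells, 7 higher and 26 neither, against 27.0% lower and 44.7% higher among all genes, with a median log2 change of -0.09. After median-of-ratios scaling 39 were lower and 2 higher (median -0.21). Complex I held 13 of the falls and 5 of the rises, complex II 2 falls, complex III 3 falls, complex IV 3 falls and 2 rises, and complex V 5 falls.

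NDUFA9, an accessory subunit near the junction of the arms of complex I (chromosome 5, positions 65760078 to 65788703), had 21.7, 21.9 and 23.1 FPKM in CBP cells against 28.9, 26.9 and 27.9 FPKM in WT cells at 60h. The groups did not overlap, and it fell by 1.25-fold (log2 -0.31 ± 0.037, limma adjusted p = 9.23e-06). NDUFV1, which binds NADH and flavin (chromosome 2, positions 4958508 to 4964211), stood at -0.23 ± 0.041, NDUFS3 at -0.23 ± 0.066, NDUFS4 at -0.20 ± 0.059, NDUFS6 at -0.15 ± 0.043 and NDUFA5 at -0.17 ± 0.034. NDUFV1 had 17.3, 16.8 and 16.3 FPKM in CBP cells against 19.8, 21.05 and 18.7 FPKM in WT cells. NDUFS1 and NDUFV2, iron-sulfur subunits, did not pass the test, at -0.06 and 0.01. The other falls in complex I were NDUFB8 at -0.26, NDUFA10 and NDUFB6 both near -0.23, NDUFB4 at -0.19, NDUFA1 at -0.19, NDUFB9 at -0.13 and NDUFB3 at -0.08.

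The 5 complex I genes that rose in CBP cells at 60h were NDUFA2, NDUFB11, NDUFA6, NDUFS5 and NDUFB10, all accessory subunits, and of these NDUFA2 and NDUFA6 were the 2 still called higher after median-of-ratios scaling. NDUFA2 (chromosome 2, positions 142359000 to 142361126) had 29.8, 31.5 and 30.6 FPKM in CBP cells against 24.4, 25.8 and 24.03 FPKM in WT cells and rose 1.24-fold (log2 0.30 ± 0.065, limma adjusted p = 0.00141). NDUFA6 had 24.8, 23.4 and 25.4 FPKM in CBP cells against 19.8, 19.8 and 21.5 FPKM in WT cells and rose 1.21-fold (limma adjusted p = 0.000448). For both genes every CBP library lay above every WT library. NDUFB11 was 1.25-fold higher (log2 0.30 ± 0.086, limma adjusted p = 0.00751), NDUFB10 1.13-fold higher on overlapping values and NDUFS5 1.14-fold higher.

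In complex II, which oxidizes succinate, SDHB, the iron-sulfur subunit, had 24.97, 23.8 and 24.1 FPKM in CBP cells against 28.2, 26.7 and 26.9 FPKM in WT cells at 60h (log2 -0.16 ± 0.044, limma adjusted p = 0.00575). SDHD, a membrane anchor, had 54.4, 53.6 and 51.8 FPKM in CBP cells against 58.3, 60.5 and 59.3 FPKM in WT cells (log2 -0.15 ± 0.029, limma adjusted p = 0.000405). Both fell without overlap. SDHC, the other anchor, was not called at 0.09. SDHA, the flavin subunit named only by the reference table, fell by 1.09-fold, with a mean of 22.9 ± 0.643 FPKM in CBP cells and 24.8 ± 0.891 FPKM in WT cells. Of the others named only there, NDUFA7 at -0.27 and NDUFB5 at -0.22, both of complex I, also fell, and UQCR11 of complex III, at -0.07, was not called.

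In complex III UQCRC1, a core protein, had 78.2, 80.6 and 76.7 FPKM in CBP cells against 91.04, 92.1 and 91.2 FPKM in WT cells at 60h and fell without overlap (log2 -0.22 ± 0.027, limma adjusted p = 1.43e-05). CYC1, cytochrome c1, fell by 1.15-fold and UQCR10 by 1.15-fold, while UQCRC2, the other core protein, UQCRFS1, the Rieske iron-sulfur protein, and UQCRQ did not pass the test. In complex IV COX8A was higher, with 177, 168 and 177 FPKM in CBP cells against 147, 158 and 155 FPKM in WT cells (log2 0.19 ± 0.037, limma adjusted p = 0.000733). NDUFA4L2, a paralogue known to be induced by low oxygen, was lower at -0.31 ± 0.092, as were COX7A2L at -0.14 ± 0.037 and COX5A at -0.12 ± 0.048, the last a call that held in 9 of 20 alternative settings. NDUFA4L2 lay near the filter, with 1.68, 1.21 and 1.28 FPKM in CBP cells against 1.68, 2.12 and 2.06 FPKM in WT cells. Its values rested on 41 to 69 reads per library. COX8A stood at 0.06 after median-of-ratios scaling and was not called there. NDUFA4, the paralogue of NDUFA4L2, was called higher at 0.11 ± 0.047 (limma adjusted p = 0.0472), a call that held in 6 of 20 alternative settings and stood at -0.01 after median-of-ratios scaling.

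In complex V the largest fall was that of ATP5ME, a subunit of the membrane part, at -0.28 ± 0.094 (limma adjusted p = 0.0173). ATP5IF1, the protein that blocks ATP hydrolysis by the enzyme, had 40.8, 39.7 and 37.3 FPKM in CBP cells against 45.8, 43.95 and 47.8 FPKM in WT cells at 60h and fell without overlap (log2 -0.22 ± 0.067, limma adjusted p = 0.0112). ATP5MC1 at -0.20, ATP5PF at -0.19 and ATP5F1C, the rotating gamma subunit, at -0.11 also fell. ATP5F1A, the alpha subunit of the catalytic head, had 93.9 ± 1.02 FPKM in CBP cells and 91.4 ± 1.83 FPKM in WT cells and was not called (log2 0.04 ± 0.030).

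**Figure D3:**
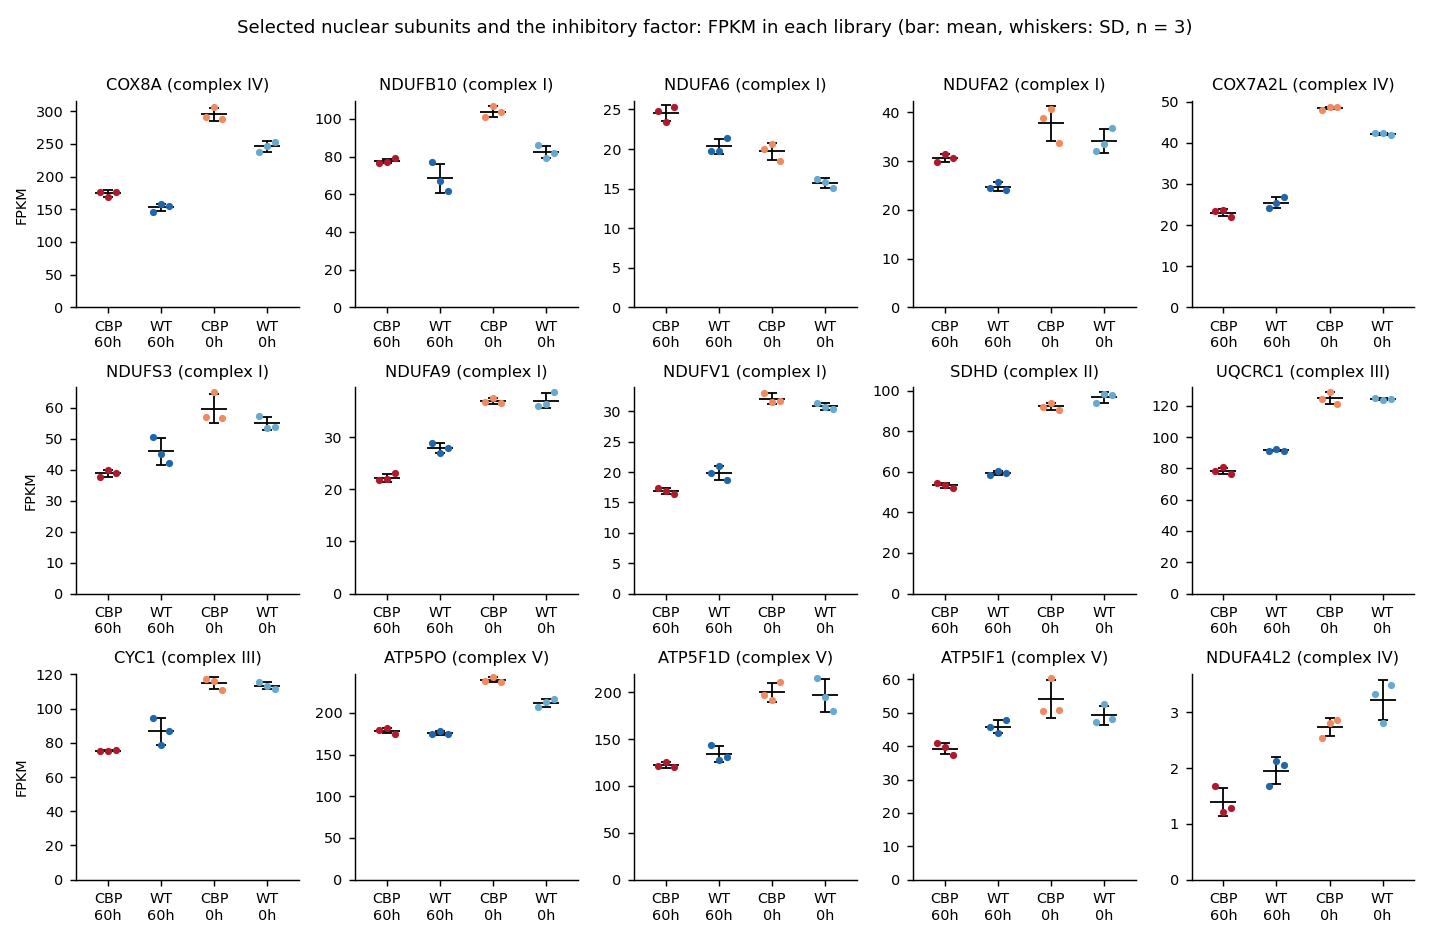
FPKM (y axis, from 0) of 15 nuclear genes in each library (points) of CBP cells at 60h, WT cells at 60h, CBP cells at 0h and WT cells at 0h (x axis), with group means (horizontal bars) and SD (whiskers, n = 3). Most are lower at 60h than at 0h in both arms, and NDUFA6 is higher at 60h. The means of COX8A, NDUFB10 and NDUFA6 are higher in CBP cells than in WT cells at both times, though the NDUFB10 libraries overlap at 60h.

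The difference between CBP and WT cells itself differed between the times for many of these genes. The interaction, the CBP against WT change at 60h minus that at 0h, was called lower for 10 of the 13 mitochondrial genes and for 15 of the 59 nuclear ones. None was called higher by limma, where the unadjusted p under 0.05 gave 0 mitochondrial and 1 nuclear gene, NDUFA4. Among all genes 50.9% were called, 26.7% lower and 24.3% higher. CYTB had an interaction of -0.96 ± 0.046, COX2 of -0.95 ± 0.046 and ATP6 of -0.94 ± 0.049 on the log2 scale (limma adjusted p = 1.46e-08, 1.45e-08 and 2.42e-08). ND3 stood at -0.85 ± 0.10, and ND5, at -0.26 ± 0.062, had the smallest called value of the 10. COX1, at 0.11 ± 0.055, ATP8, at -0.38 ± 0.25, and ND6, at -0.20 ± 0.079 (limma adjusted p = 0.0507), were not called.

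The median interaction was -0.10 for the nuclear genes, -0.59 for the mitochondrial genes and -0.01 for all genes tested. The 15 nuclear calls comprised 8 genes of complex I, 1 of complex II (SDHB), 2 of complex III (CYC1 and UQCRC1), 1 of complex IV (COX7A2L) and 3 of complex V (ATP5F1C, ATP5IF1 and ATP5PO). NDUFS3 had the lowest value, at -0.35 ± 0.093 (limma adjusted p = 0.00813), and NDUFS1 the value nearest to 0 among those called, at -0.14 ± 0.047. COX7A2L combined a rise in CBP cells at 0h, with 48.1, 48.6 and 48.6 FPKM against 42.3, 42.4 and 41.9 FPKM in WT cells, and a fall at 60h, with 23.5, 23.5 and 22.1 FPKM in CBP cells against 24.2, 25.3 and 26.8 FPKM in WT cells. It was the only nuclear gene tested that was called in opposite directions at the 2 times, although its rise at 0h stood at 0.06 after median-of-ratios scaling. Among the mitochondrial genes ND1, COX2, ATP6, COX3, ND5 and CYTB were called in opposite directions, 6 of 13, the rises of COX3 and ND5 losing their calls after that scaling.

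Between the times, nuclear and mitochondrial genes parted in WT cells. Of 59 nuclear genes 49 were called lower and 1 higher at 60h than at 0h, with a median log2 change of -0.30, while 10 of the 13 mitochondrial genes were called higher and 3 lower, with a median of 0.24. Among all genes 66.8% were called, 28.8% higher and 38.0% lower (median -0.05). COX2 had 3429.8, 3314 and 3335 FPKM at 60h against 1971, 1888 and 1899 FPKM at 0h in WT cells and rose 1.75-fold (log2 0.81 ± 0.032, limma adjusted p = 7.37e-10). ND3 rose 1.63-fold, ATP6 1.38-fold, ND2 1.24-fold, COX3 1.23-fold and CYTB 1.18-fold. ATP8 had 36.9, 31.8 and 34.4 FPKM at 60h against 13.1, 13.9 and 14.4 FPKM at 0h. Its groups stood far apart, though few reads lay behind them. COX1 fell, with 8917, 8646 and 8802 FPKM at 60h against 11286, 11711 and 12036 FPKM at 0h (log2 -0.41 ± 0.039, limma adjusted p = 1.57e-06), as did ND5 at -0.25 ± 0.044 and ND6 at -0.23 ± 0.056.

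In CBP cells both groups of genes were lower at 60h than at 0h. Of the nuclear genes 54 were called lower and 1 higher, with a median of -0.43, and of the mitochondrial genes 10 were called lower and 1, ATP8, higher, with a median of -0.40. Among all genes 72.7% were called, 31.3% higher and 41.5% lower. CYTB had 1005, 1022 and 1006 FPKM at 60h against 1665, 1726 and 1607 FPKM at 0h in CBP cells, a fall of 1.65-fold without overlap (log2 -0.72 ± 0.033, limma adjusted p = 1.32e-09). ND1, ND4L, ND5 and ATP6 stood at -0.56, -0.51, -0.51 and -0.48, and COX1 at -0.30 ± 0.039. COX3, at -0.07, and ND3, at -0.15, were not called. Quantile scaling, which fixes the values of the top ranks, turned COX3 to 0.43 and ATP6 to 0.06.

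All 49 nuclear genes that fell in WT cells also fell in CBP cells. COX7A2L had the largest fall in both arms, with 23.04 ± 0.849 FPKM at 60h and 48.4 ± 0.318 FPKM at 0h in CBP cells (log2 -1.04 ± 0.037), and 25.4 ± 1.31 FPKM at 60h and 42.2 ± 0.248 FPKM at 0h in WT cells (log2 -0.71 ± 0.037). NDUFV1 fell by 1.91-fold in CBP cells and by 1.55-fold in WT cells. In the same order of arms SDHD fell by 1.73-fold and 1.63-fold, COX8A by 1.70-fold and 1.61-fold, ATP5F1D, a subunit of the rotor stalk, by 1.63-fold and 1.47-fold, UQCRC1 by 1.59-fold and 1.36-fold, and UQCRC2 by 1.57-fold and 1.52-fold.

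NDUFA6 was the only nuclear gene called higher at 60h, in both arms. It had 24.8, 23.4 and 25.4 FPKM at 60h against 19.98, 20.6 and 18.5 FPKM at 0h in CBP cells (log2 0.30 ± 0.048, limma adjusted p = 0.000125). In WT cells it had 19.8, 19.8 and 21.5 FPKM at 60h against 16.2, 15.9 and 15.03 FPKM at 0h (log2 0.35 ± 0.048, limma adjusted p = 4.01e-05). The genes called in neither arm were NDUFA8, NDUFA11, NDUFB1 and NDUFB2, all of complex I, and ATP5IF1, NDUFB8, ATP5MK, ATP5ME and NDUFA5 were called lower in CBP cells and not in WT cells. The interaction was called for ATP5IF1, NDUFB8 and NDUFA5 and not for ATP5MK or ATP5ME.

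**Figure D4:**
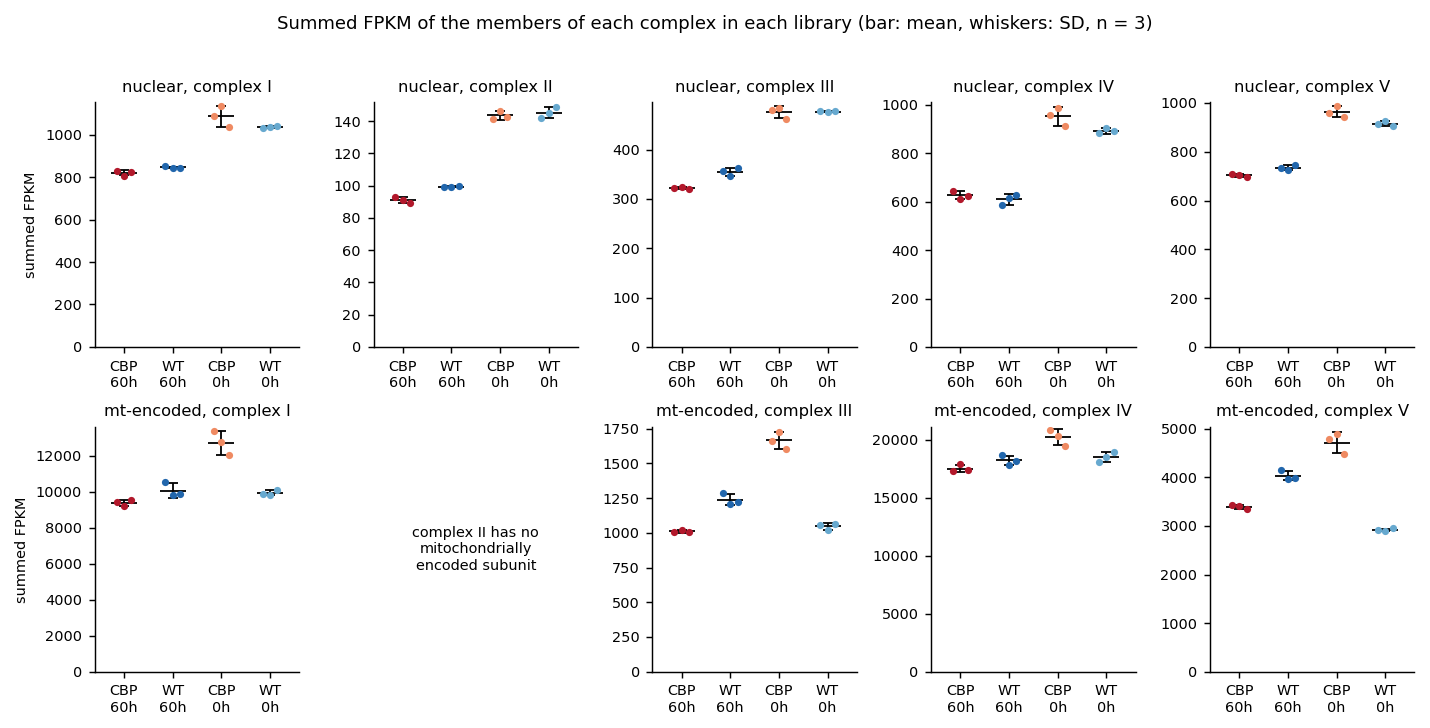
Summed FPKM (y axis, from 0) of the nuclear genes of each complex (top row) and of the mitochondrially encoded genes of each complex (bottom row) in each library (points), with group means (horizontal bars) and SD (whiskers, n = 3). Nuclear sums of every complex are lower at 60h than at 0h in both arms, whereas the mitochondrial sums are highest in CBP cells at 0h.

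Summed over genes, the mitochondrial total was again higher in CBP cells at 0h and lower at 60h. The rise of most mitochondrial genes between the times in WT cells was not repeated in that total. The WT sums at 60h and 0h overlapped, with a ratio of means of 1.03. By complex the WT ratio was 1.01 for complex I, 1.18 for complex III, 0.982 for complex IV and 1.38 for complex V. The mitochondrial sum was 40674, 39718 and 37624 FPKM in CBP cells against 31973, 32312 and 33086 FPKM in WT cells at 0h, without overlap. At 60h it was 31151, 31512 and 31265 FPKM in CBP cells against 34611, 32842 and 33254 FPKM in WT cells, again without overlap and with the CBP libraries lower. The nuclear sum was 3628, 3739 and 3495 FPKM in CBP cells against 3448, 3484 and 3459.7 FPKM in WT cells at 0h and 2596, 2541 and 2557 FPKM in CBP cells against 2624, 2630.03 and 2678 FPKM in WT cells at 60h. The nuclear sums of CBP and WT cells did not overlap at either time, and stood close together beside the gap between the times.

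The mitochondrial sum of complex V (ATP6 and ATP8) was 1.61 times that of WT cells in CBP cells at 0h, that of complex I 1.28 times and that of complex IV, which COX1 dominates, 1.09 times. The nuclear sums were 1.05 (complex I), 0.988 (complex II), 0.997 (complex III), 1.07 (complex IV) and 1.05 (complex V) times those of WT cells. At 60h the same nuclear ratios of CBP to WT cells were 0.969, 0.917, 0.906, 1.03 and 0.959. The nuclear ratios above 1 at either time lay within the shift that median-of-ratios scaling made in all genes. The ratio of the mitochondrial to the nuclear sum was 12.2 ± 0.201 in CBP cells and 12.7 ± 0.427 in WT cells at 60h, and 10.9 ± 0.307 in CBP cells and 9.37 ± 0.167 in WT cells at 0h (SD, n = 3).

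**Figure D5:**
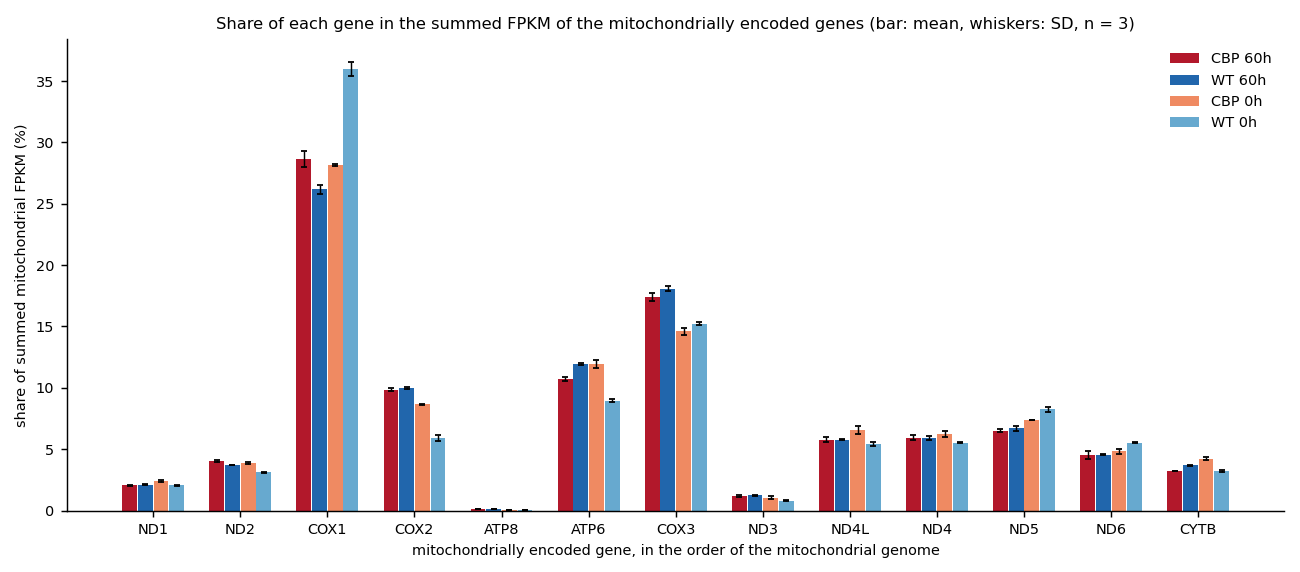
Share of each mitochondrially encoded gene (x axis, in genome order) in the summed mitochondrial FPKM (y axis, percent, from 0), as group means (bars) with SD (whiskers, n = 3) for CBP cells at 60h, WT cells at 60h, CBP cells at 0h and WT cells at 0h. COX1 takes 36.0% in WT cells at 0h and between 26.2% and 28.7% in the other 3 groups.

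The make-up of the mitochondrial sum set WT cells at 0h apart for most genes, among them COX1, COX2 and ATP6. CYTB, ND1 and COX3 were among the exceptions, and CYTB took 3.22% in WT cells at 0h and 3.23% in CBP cells at 60h. Since each share is a ratio within a library, it does not depend on the scaling between libraries. COX1 took 28.2, 28.1 and 28.2% of the mitochondrial FPKM in the CBP libraries at 0h against 35.3, 36.2 and 36.4% in the WT libraries. At 60h it took 28.7, 29.3 and 27.99% in CBP cells against 25.8, 26.3 and 26.5% in WT cells. COX2 took 8.65 ± 0.0142% in CBP cells and 5.92 ± 0.222% in WT cells at 0h, and 9.85 ± 0.147% in CBP cells and 10.01 ± 0.0921% in WT cells at 60h. COX1 and COX2 are neighbours on the heavy strand and are known to be cut from the same precursor.

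ATP6 took 11.9 ± 0.297% in CBP cells and 8.97 ± 0.115% in WT cells at 0h, and 10.7 ± 0.151% in CBP cells and 11.9 ± 0.0681% in WT cells at 60h. The share of CYTB was 4.24 ± 0.129% in CBP cells and 3.22 ± 0.0757% in WT cells at 0h, and 3.23 ± 0.0133% in CBP cells and 3.69 ± 0.0267% in WT cells at 60h. That of ND6 was 4.83 ± 0.188% in CBP cells and 5.53 ± 0.0431% in WT cells at 0h, and 4.51 ± 0.310% in CBP cells and 4.57 ± 0.0433% in WT cells at 60h, where the libraries overlapped.

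Several subunits have isoforms known for their tissue. COX6A2, the isoform of heart and skeletal muscle, had 11.9 ± 0.625 FPKM in CBP cells and 12.2 ± 0.499 FPKM in WT cells at 60h, and 15.9 ± 0.636 FPKM in CBP cells and 14.6 ± 0.965 FPKM in WT cells at 0h, below its ubiquitous partner COX6A1 at 25.5 ± 0.644, 24.6 ± 1.05, 34.5 ± 2.70 and 33.4 ± 1.16 FPKM in the same order. Neither differed between CBP and WT cells past the test, and both fell between the times in both arms. The gene lengths behind these FPKM were 1383 bases for COX6A2 and 4860 for COX6A1, and the reads in CBP cells at 60h were 929 and 6994. COX7A2 averaged 84.1 ± 4.83, 83.97 ± 6.87, 111 ± 4.82 and 104 ± 2.25 FPKM, with COX7A1 near 0. ATP5MC1 and ATP5MC3, which encode the same mature c-ring protein, averaged 68.2 ± 1.45 and 19.4 ± 0.942 FPKM in CBP cells at 60h, 78.8 ± 5.35 and 19.00 ± 1.10 in WT cells at 60h, 89.1 ± 7.41 and 30.7 ± 1.81 in CBP cells at 0h, and 88.4 ± 4.39 and 28.1 ± 0.575 in WT cells at 0h. Their order depends on gene length, 854 bases for ATP5MC1 and 8079 for ATP5MC3. By reads ATP5MC3 stood higher in every group, with 8846 against 3291 in CBP cells at 60h. COX7B had 29.8 ± 1.12 FPKM in CBP cells and 29.8 ± 1.91 FPKM in WT cells at 60h, where its log2 change of 0.00 was turned to -0.12 by median-of-ratios scaling and called lower there (limma adjusted p = 0.0395).

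COX4I2, the isoform of the complex IV subunit 4 known from lung and low oxygen, lies outside the rule and was higher in CBP cells at both times. It had 3.14, 4.39 and 4.13 FPKM in CBP cells against 1.60, 1.57 and 1.32 FPKM in WT cells at 0h (log2 0.96 ± 0.14, limma adjusted p = 8.59e-05). At 60h it had 5.04, 3.33 and 5.28 FPKM in CBP cells against 2.04, 2.69 and 2.25 FPKM in WT cells (log2 0.72 ± 0.14, limma adjusted p = 0.000561). The groups did not overlap at either time. COX4I1, the ubiquitous isoform, had 36.4 ± 3.41 FPKM in CBP cells and 37.8 ± 2.19 FPKM in WT cells at 0h and was not called, and fell at 60h to 26.7 ± 1.28 FPKM in CBP cells, against 32.4 ± 2.79 FPKM in WT cells.

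Regulators of mitochondrial transcription and biogenesis moved in both directions. Of 31 tested, 7 were called higher and 4 lower in CBP cells at 0h and 5 higher and 11 lower at 60h, against 44.2% higher and 18.1% lower of all genes at 0h and 44.7% higher and 27.0% lower at 60h, with medians of 0.04 and -0.06. After median-of-ratios scaling these counts were 3 higher and 10 lower at 0h and 3 higher and 16 lower at 60h. POLG, the mitochondrial DNA polymerase, rose 1.33-fold at 0h and 1.66-fold at 60h (log2 0.39 and 0.69). TFAM, which packages mitochondrial DNA and starts its transcription, rose 1.18-fold at 0h and 1.26-fold at 60h, the rise at 0h not being called after median-of-ratios scaling (log2 0.09). POLRMT, the mitochondrial RNA polymerase, had 9.14 ± 0.179 FPKM in CBP cells and 10.4 ± 0.0688 FPKM in WT cells at 0h and was lower (log2 -0.17 ± 0.039, limma adjusted p = 0.00213).

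LRPPRC, which stabilizes mitochondrial messenger RNAs, was not called at 0h (log2 0.02), but was called lower after median-of-ratios scaling (log2 -0.11, limma adjusted p = 0.00726). At 60h it had 24.7, 23.6 and 24.8 FPKM in CBP cells against 32.03, 31.3 and 32.1 FPKM in WT cells and fell by 1.31-fold (log2 -0.37 ± 0.028, limma adjusted p = 1.84e-07), with an interaction of -0.40 ± 0.040 (limma adjusted p = 6.10e-06). PPRC1 and PPARGC1B, coactivators of respiratory genes, fell at 60h by 1.55-fold and 1.60-fold, ESRRA, a nuclear receptor of the same programme, by 1.76-fold, and PNPT1, a mitochondrial RNA exonuclease, by 1.72-fold. ESRRG had 2.46 ± 0.240 FPKM in CBP cells and 4.19 ± 0.307 FPKM in WT cells at 0h (log2 -0.58 ± 0.074). GABPA, an activator of nuclear subunit genes, rose 1.26-fold at 60h, and NRF1, another such activator, rose 1.18-fold at 60h and 1.26-fold at 0h, both calls being lost after median-of-ratios scaling (log2 0.08 at 60h and 0.14 at 0h). PPARGC1A, the master coactivator of the group, lay below the filter, at 0.192 ± 0.0154 FPKM in CBP cells and 0.207 ± 0.0644 FPKM in WT cells at 60h, and 0.371 ± 0.109 FPKM in CBP cells and 0.634 ± 0.178 FPKM in WT cells at 0h.

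Assembly factors, which put the complexes together without staying in them, showed mixed changes. For complex I 17 were tested, of which 3 were called higher and 1 lower in CBP cells at 0h and 4 higher and 7 lower at 60h. NDUFAF2 was higher at both times (1.42-fold at 0h and 1.51-fold at 60h), and NDUFAF6 had the largest fall at 60h, 1.63-fold. For complexes II to V 24 were tested, of which 10 were called higher and 3 lower at 0h and 5 higher and 7 lower at 60h. Among all genes the shares were 44.2% higher and 18.1% lower at 0h and 44.7% higher and 27.0% lower at 60h. After median-of-ratios scaling the complex I counts were 2 higher and 6 lower at 0h and 1 higher and 9 lower at 60h, and those of complexes II to V 7 and 5 at 0h and 1 and 8 at 60h. TMEM177, which acts with COX2 in complex IV assembly, was 1.63-fold higher at 0h, and PET100, another complex IV factor, 1.66-fold lower at 60h. Between the times 18 of the 24 fell in CBP cells, against 41.5% of all genes, and 15 in WT cells, against 38.0%, among them SURF1, a complex IV factor, by 1.74-fold in WT cells.

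Carriers and further subunits outside the rule, 23 tested, had 8 called higher and 5 lower in CBP cells at 0h and 7 higher and 8 lower at 60h, against 44.2% higher and 18.1% lower of all genes at 0h and 44.7% higher and 27.0% lower at 60h (4 and 5 at 0h and 4 and 14 at 60h after median-of-ratios scaling). ETFDH, which passes electrons from fatty acid oxidation to ubiquinone, had 17.7, 17.01 and 17.1 FPKM in CBP cells against 32.4, 30.3 and 30.9 FPKM in WT cells at 60h and fell by 1.81-fold (log2 -0.82 ± 0.031, limma adjusted p = 3.42e-10). It was also lower at 0h, by 1.28-fold. COQ8A, needed for ubiquinone synthesis, had 6.83, 6.45 and 6.27 FPKM in CBP cells against 2.63, 2.86 and 2.65 FPKM in WT cells at 60h and rose 2.40-fold (log2 1.02 ± 0.072, limma adjusted p = 9.70e-08). SLC25A5, an ADP/ATP carrier, fell between the times in WT cells by 2.03-fold.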

How the data were processed

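Gene-level FPKM values were used as the authors deposited them, 1 table for all 12 libraries. Libraries were prepared from total RNA with the VAHTS Universal V8 kit, per the labels' protocols. Trimmomatic, featureCounts and the build Sscrofa11.1 are named, per the submitters' processing notes. The aligner, strand setting, multiple-mapping setting and RNA selection are unknown here (not given in the sources used). Columns named NC were matched to titles with WT.

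The test was limma 3.58.1 (R 4.3.3) on log2(FPKM + 1), with a trended empirical Bayes spread shared by the 4 groups. The filter kept 11636 genes whose FPKM was no lower than 1 in 3 or more of the 12 libraries. P-values were two-sided and adjusted by Benjamini-Hochberg over all of them, and called below 0.05. The comparisons were CBP against WT at 60h and at 0h, 60h against 0h in each arm, and their interaction. The procedure was tested on simulated data in which few genes changed, in both directions, so a shift of most genes was not covered there.

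Whole reads and gene lengths were recovered from the FPKM steps for 22521 of 22521 genes with a value above 0, within a tolerance that grew with the read count. They were used only for depth and for the lengths and reads printed here. Symbols came from the table (16801 genes) and, where it had none, from the RefSeq table of Sscrofa11.1 (687 genes), which also gave positions and the 4 subunits outside the rule.

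Genes named in the text were drawn from all mitochondrial genes, the succinate dehydrogenase subunits, the called nuclear gene with the largest rise and fall per complex and comparison, the isoform pairs, a set of regulators, and the extremes of each gene list. Further genes were named after their values were seen, to make the counts complete. 1 member is counted in the totals but its results are not reported here. The members and the gene lists were chosen with earlier results of these data known. Alternatives were another pseudocount (0.1), no filter, 4 other scalings (TPM, median of ratios, quantile, and without mitochondrial genes), the compared groups alone, a replicate block and each library left out.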

Additional observations from a re-analysis of the deposited data

Results flagged for a closer look

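For 24 of the genes reported here the difference between CBP and WT cells itself differed between 60h and 0h (limma interaction, adjusted p under 0.05), and each value below is the log2 change at 60h minus that at 0h. All 24 were negative. Of all genes 50.9% were called in this test and 26.7% were called negative, which is near the share among the nuclear genes, 15 of 59. The mitochondrial ones were CYTB at -0.96, COX2 at -0.95, ATP6 at -0.94, ND3 at -0.85, ND4L at -0.65, ND1 at -0.63, ND2 at -0.59, ND4 at -0.55, COX3 at -0.37 and ND5 at -0.26. In complex I the nuclear genes were NDUFS3 at -0.35, NDUFA9 and NDUFB6 both at -0.31, NDUFV1 at -0.28, NDUFB8 at -0.26, NDUFA5 at -0.18 and NDUFS1 at -0.14. SDHB of complex II stood at -0.23, CYC1 and UQCRC1 of complex III both at -0.22 and COX7A2L of complex IV at -0.33. In complex V ATP5IF1 stood at -0.34, ATP5F1C at -0.16 and ATP5PO at -0.15.

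Cell type markers had positive and negative interactions past the same test, 8 of 8 positive for muscle, 5 positive and 2 negative of 7 for fibroblasts, and 3 positive and 1 negative of 6 for smooth muscle, against 24.3% positive among all genes. Their part in these results was not tested.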

How the results depend on the processing

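Counts are of genes called in CBP against WT cells unless a stage is named. At 0h the mitochondrial genes called lower, 0 as reported, were 1 after TPM, median-of-ratios and mitochondria-free scaling. The nuclear ones called higher, 8, were 4 after median of ratios, and those called lower, 3, were 5 after TPM and quantile scaling and 20 after median of ratios. At 60h the mitochondrial genes called lower, 6, were 11 after median of ratios and 3 without the filter and after quantile scaling, and the nuclear ones called higher, 7, were 2 after median of ratios. Nuclear genes higher at 60h than at 0h, 1 in each arm, were 2 in WT cells with only the groups compared, and in CBP cells 3 after TPM and mitochondria-free scaling and 2 after median-of-ratios and quantile scaling. Mitochondrial genes higher at 60h in CBP cells, 1, were 2 after quantile scaling. The interaction gave 1 nuclear and 1 mitochondrial gene called higher after TPM scaling. Signs turned after median of ratios at 0h for ND5 (-0.021), SDHA (-0.11) and LRPPRC (-0.11) and at 60h for ND2 (-0.12), COX7B (-0.12) and NDUFA4 (-0.014). After quantile scaling they turned for ND5 at 0h (-0.042) and, in CBP cells at 60h against 0h, for ATP6 (0.061) and COX3 (0.43). The cause was not tested.

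With each library left out in turn, calls at 0h ranged between 9 and 11 higher for the mitochondrial genes, between 8 and 13 higher (13 without CBP replicate 3) and between 1 and 5 lower for the nuclear ones (1 without WT replicate 2, 5 without CBP replicate 2). At 60h they ranged between 5 and 9 lower for the mitochondrial and between 19 and 27 lower and 5 and 8 higher for the nuclear genes. Nuclear genes higher at 60h than at 0h ranged between 1 and 2 in WT cells (2 without CBP 0h replicate 3) and between 1 and 2 in CBP cells (2 without CBP 0h replicate 1 or 2). Interactions called higher ranged between 0 and 2 for the nuclear genes (2 without CBP 0h replicate 2, 1 without CBP 60h replicate 2), and those called lower between 12 and 18, with 10 to 11 for the mitochondrial genes. The mitochondrial to nuclear ratio ranged between 12.1 and 12.3 in CBP cells and 12.5 and 12.8 in WT cells at 60h, and between 10.69 and 10.99 in CBP cells and 9.27 and 9.42 in WT cells at 0h.

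Replicate numbers are shared between groups, but samples with the same number did not deviate together (r between -0.094 and 0.082), so they were not taken as pairs. With a replicate block 10 nuclear genes were called higher and 3 lower at 0h, and 7 higher and 23 lower at 60h. The mitochondrial counts with the block were 11 higher and 0 lower at 0h and 0 higher and 7 lower at 60h. The block moved no count of calls by over 1.5 times. Among the mitochondrial genes depth limits ATP8 most, with 51 to 155 reads per library. Some nuclear genes tested rested on fewer, such as NDUFA11 with 24 to 51 and NDUFA4L2 with 41 to 120 reads per library.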

Other observations

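Gene sets around the respiratory chain were counted in the same fit. The mitochondrial ribosome, which translates the 13 mitochondrial messenger RNAs, had 29 of 67 tested proteins called higher and 3 lower in CBP cells at 0h (median 0.13), against 44.2% and 18.1% of all genes, but 6 higher and 9 lower after median-of-ratios scaling. At 60h 7 were higher and 29 lower, or 4 and 40 after that scaling, against 44.7% higher and 27.0% lower of all genes. The interaction was called lower for 36 and higher for 3, against 26.7% and 24.3% of all genes. MRPS6, a protein of the small subunit, had 23.5, 25.7 and 23.4 FPKM in CBP cells against 12.5, 13.4 and 14.6 FPKM in WT cells at 60h, all CBP libraries higher, and rose 1.79-fold (limma adjusted p = 1.40e-07). MRPS35, also of the small subunit, fell by 1.60-fold at 60h. MRPL12, a protein of the large subunit, fell between the times by 2.15-fold in CBP cells and 2.00-fold in WT cells.

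Enzymes of the tricarboxylic acid cycle and pyruvate entry had 15 of 25 called higher and 2 lower in CBP cells at 0h, turning to 5 and 7 after median-of-ratios scaling, and 7 higher and 9 lower at 60h, or 3 and 15. The shares of all genes were 44.2% higher and 18.1% lower at 0h and 44.7% higher and 27.0% lower at 60h. PDK3 and PDK4, kinases that switch off pyruvate dehydrogenase, rose at 0h with log2 changes of 0.49 ± 0.043 and 0.56 ± 0.082. Between the times 20 of 25 were lower in CBP cells, against 41.5% of all genes, and 19 in WT cells, against 38.0%. Of 18 glycolytic genes 10 were higher and 2 lower at 0h, or 7 and 5 after median-of-ratios scaling, and 4 higher and 8 lower at 60h, beside the same shares of all genes. PGAM2, the muscle isoform of phosphoglycerate mutase, had 20.03, 20.9 and 20.7 FPKM in CBP cells against 52.4, 55.4 and 55.98 FPKM in WT cells at 0h and fell by 2.66-fold, and at 60h by 2.83-fold. PFKM, the muscle isoform of phosphofructokinase, moved the other way at 0.64 ± 0.043 at 0h. ENO3, the muscle enolase, was lower at 60h than at 0h by 5.20-fold in CBP cells and 3.75-fold in WT cells.

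Of 23 mitochondrial import genes 10 were called higher and 3 lower at 0h, or 3 and 4 after median-of-ratios scaling, and 4 higher and 8 lower at 60h, or 2 and 14. The shares of all genes were close to the counts at 0h, with 44.2% higher and 18.1% lower, and stood at 44.7% higher and 27.0% lower at 60h. HSPA9, the matrix chaperone that pulls proteins in, had 126, 128 and 121 FPKM in CBP cells against 233, 231 and 234 FPKM in WT cells at 60h and fell by 1.86-fold without overlap (log2 -0.89 ± 0.025, limma adjusted p = 3.39e-11). TOMM34, a cytosolic co-chaperone of import, rose 1.38-fold at 0h and 1.64-fold at 60h.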
